A study of Mus musculus with 2 samples.

Results

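Entpd1, Nt5e, Cd38, Bst1, Adora2a and Adora2b are 6 of the 55450 genes in the count matrices, and they were followed across T, NK, B, myeloid and melanoma cells of B16F10 tumours. They were chosen by name, as the cell-surface enzymes that break down extracellular ATP and NAD and the receptors that sense the adenosine produced. Earlier results of these data, among them the lower Cd38 of KO macrophages, were known when the choice was made. Every one of the 6 genes was counted in both libraries. B16F10 is a mouse melanoma line, and here it was injected under the skin and the tumours were taken at day 10. The WT library came from Kcnj2f/f mice, which carry the floxed allele without Cre. The KO library came from Lyz2-Cre-Kcnj2f/f mice, in which Cre is driven from the lysozyme 2 locus of myeloid cells. In each case the tumours of 3 mice were pooled, CD45+ cells were sorted, and a single 10x 3′ library was made. The study asked how Kir2.1, the potassium channel encoded by Kcnj2, affects the tumour microenvironment.

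With 1 library per genotype there was no replicate check and no test. All intervals below are 95% intervals that cover counting error only. Levels are UMIs (unique molecular identifiers, counted molecules) of the gene per 1000000 UMIs of a cell class (CPM) with an exact Poisson interval, shares of cells have an exact binomial interval, and KO over WT ratios are on the log2 scale with an exact conditional binomial interval. A ratio was called higher or lower only where it was at least 0.5 in size, its interval left out 0 and the class held at least 20 UMIs of the gene over both libraries. CPM values of 1 gene were set side by side between classes, and levels were not compared between genes.

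Extracellular ATP is released by stressed and dying cells. Entpd1 encodes CD39, which removes phosphates from ATP and ADP to give AMP, and Nt5e encodes CD73, which turns AMP into adenosine. Cd38 encodes an enzyme that consumes NAD and makes cyclic ADP-ribose, and its product can feed a further route to AMP. Bst1 encodes CD157, a relative of CD38 anchored to the membrane by a lipid. Adora2a and Adora2b encode the adenosine receptors that couple to the stimulatory G protein and raise cyclic AMP, and signalling through them is known to restrain T cells, NK cells and myeloid cells in tumours.

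All 6 genes lie on the plus strand of GRCm38 and are protein coding in GENCODE M21. Entpd1 (ENSMUSG00000048120) spans chr19:40612366-40741602, Nt5e (ENSMUSG00000032420) spans chr9:88327197-88372092, Adora2a (ENSMUSG00000020178) spans chr10:75316877-75334784 and Adora2b (ENSMUSG00000018500) spans chr11:62248984-62266453. Bst1 (ENSMUSG00000029082, chr5:43818885-43843986) and Cd38 (ENSMUSG00000029084, chr5:43868553-43912375) are neighbours, with 24566 bases and 0 annotated genes between them. Entpd1 overlaps 3 other genes on its own strand and Cd38 overlaps 1, so reads of those genes could be shared with them. Bst1 overlaps Fbxl5 and Cd38 overlaps Gm16015, both on the opposite strand.

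Promoter sequences of 4 of the 6 members were found in the RefSeq promoter table (GRCm38.p6), as 5 windows of 250 bases before an annotated start. They were searched on both strands for the cyclic AMP response element TGACGTCA and its part TGACG (which the longer motif contains), the E-box CACGTG and the PU.1 core TTCCTC. The Cd38 window (chr5:43868559-43868808) and the Nt5e window (chr9:88327359-88327608) lay inside the GENCODE spans given above, so not every window was upstream of its gene. Matches were found in the windows of Entpd1 alone. The window at the start of the gene held TGACG at 135 bases before the start. The window at an internal start held TGACG at 183 bases and TTCCTC at 235 and 227 bases before that start. Of all 32851 promoters in the table, 17.8% held TGACG and 23.3% held TTCCTC, so these matches are a description and not a site. The internal Entpd1 window is shown with its matches in capitals, each written as the reverse complement because it lies on the minus strand, beside the Adora2b window, the member whose UMIs were most restricted to myeloid classes and whose window held no match.
Entpd1, internal start, GRCm38.p6, chr19:40659520-40659769, plus strand: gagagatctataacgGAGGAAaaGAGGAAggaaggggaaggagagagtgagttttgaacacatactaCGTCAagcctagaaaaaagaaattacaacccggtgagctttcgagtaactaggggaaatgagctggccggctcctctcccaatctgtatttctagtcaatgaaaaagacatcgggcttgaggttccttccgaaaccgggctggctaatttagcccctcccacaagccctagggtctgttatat
Adora2b, GRCm38.p6, chr11:62248734-62248983, plus strand: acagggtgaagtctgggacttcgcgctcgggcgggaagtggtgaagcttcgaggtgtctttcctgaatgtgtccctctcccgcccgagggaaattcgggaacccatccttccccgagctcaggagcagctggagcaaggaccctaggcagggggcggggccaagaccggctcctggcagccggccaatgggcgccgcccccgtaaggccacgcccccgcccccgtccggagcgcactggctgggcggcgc
The GC content was 47.2% in the Entpd1 window and 69.6% in the Adora2b window. A 3′ library cannot tell which start a transcript used.

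The WT matrix held 9677 barcodes with 55219440 UMIs (median 3951 per barcode), and the KO matrix held 6356 barcodes with 57047535 UMIs (median 6826.5). After filtering, 8936 WT and 5686 KO cells remained (medians 4398.5 and 8013 UMIs), and 63 barcodes occurred in both libraries. The cells fell into 31 clusters, from which 15 classes were named by marker genes and are written as "-like" (cDC1 and cDC2 are the types of conventional dendritic cell, and pDC plasmacytoid dendritic cells), and 2072 WT and 678 KO cells (23.2% and 11.9%) stayed unnamed. In WT the classes held from 54 regulatory T cell-like to 1832 B cell-like cells, and in KO from 24 neutrophil-like to 1033 cDC2-like cells. Melanoma-like cells, 122 WT and 94 KO, held Ptprc, the gene of CD45, at 67.7 and 49.2 CPM although the sort was for CD45+ cells. Kcnj2, the targeted gene, stood at 21.8 CPM (87 UMIs) in WT and 10.2 CPM (79 UMIs) in KO macrophage-like cells. The labels do not say which part of Kcnj2 was deleted, so UMIs at its 3′ end may lie outside it. Lyz2, the Cre locus, was at 8440 and 1417 CPM in the same class.

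UMIs of lymphocyte markers were found in other classes, at higher levels in the WT library. The 6 B cell markers together (among them Cd79a, Cd79b and Ms4a1) were lower in KO in 14 of 14 other classes, with 39.1 to 405 CPM in WT against 5.12 to 68.5 CPM in KO. The 6 T cell markers together (Cd3d, Cd3e, Cd3g, Trac, Cd247 and Trbc2) were lower in KO in 9 of 9 classes outside the T and NK cells, with 44.6 to 553 CPM in WT against 8.22 to 188 CPM in KO. None of these markers was at 0 in the macrophage-, monocyte-, cDC1-, cDC2-, migratory DC- and pDC-like classes of either library. Because Cd38 was high in B cell-like cells and Nt5e in T cell-like cells, these values are given again beside the results they move with.

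The 6 genes and 15 classes gave 90 pairs, of which 56 had at least 20 UMIs. The KO over WT ratio was called higher in 3 of the 56, lower in 9 and neither in 44. Cd38 accounted for 5 of the 9 lower calls and had a ratio below 0 in all 11 classes where it could be compared. Nt5e was called lower in 3 classes and higher in CD4 T cell-like cells, and had a ratio below 0 in 9 of 11. Adora2a was called in 2 classes, Entpd1 in 1, and Bst1 and Adora2b in none of the 8 and 4 classes where they could be compared.

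**Figure D1:**
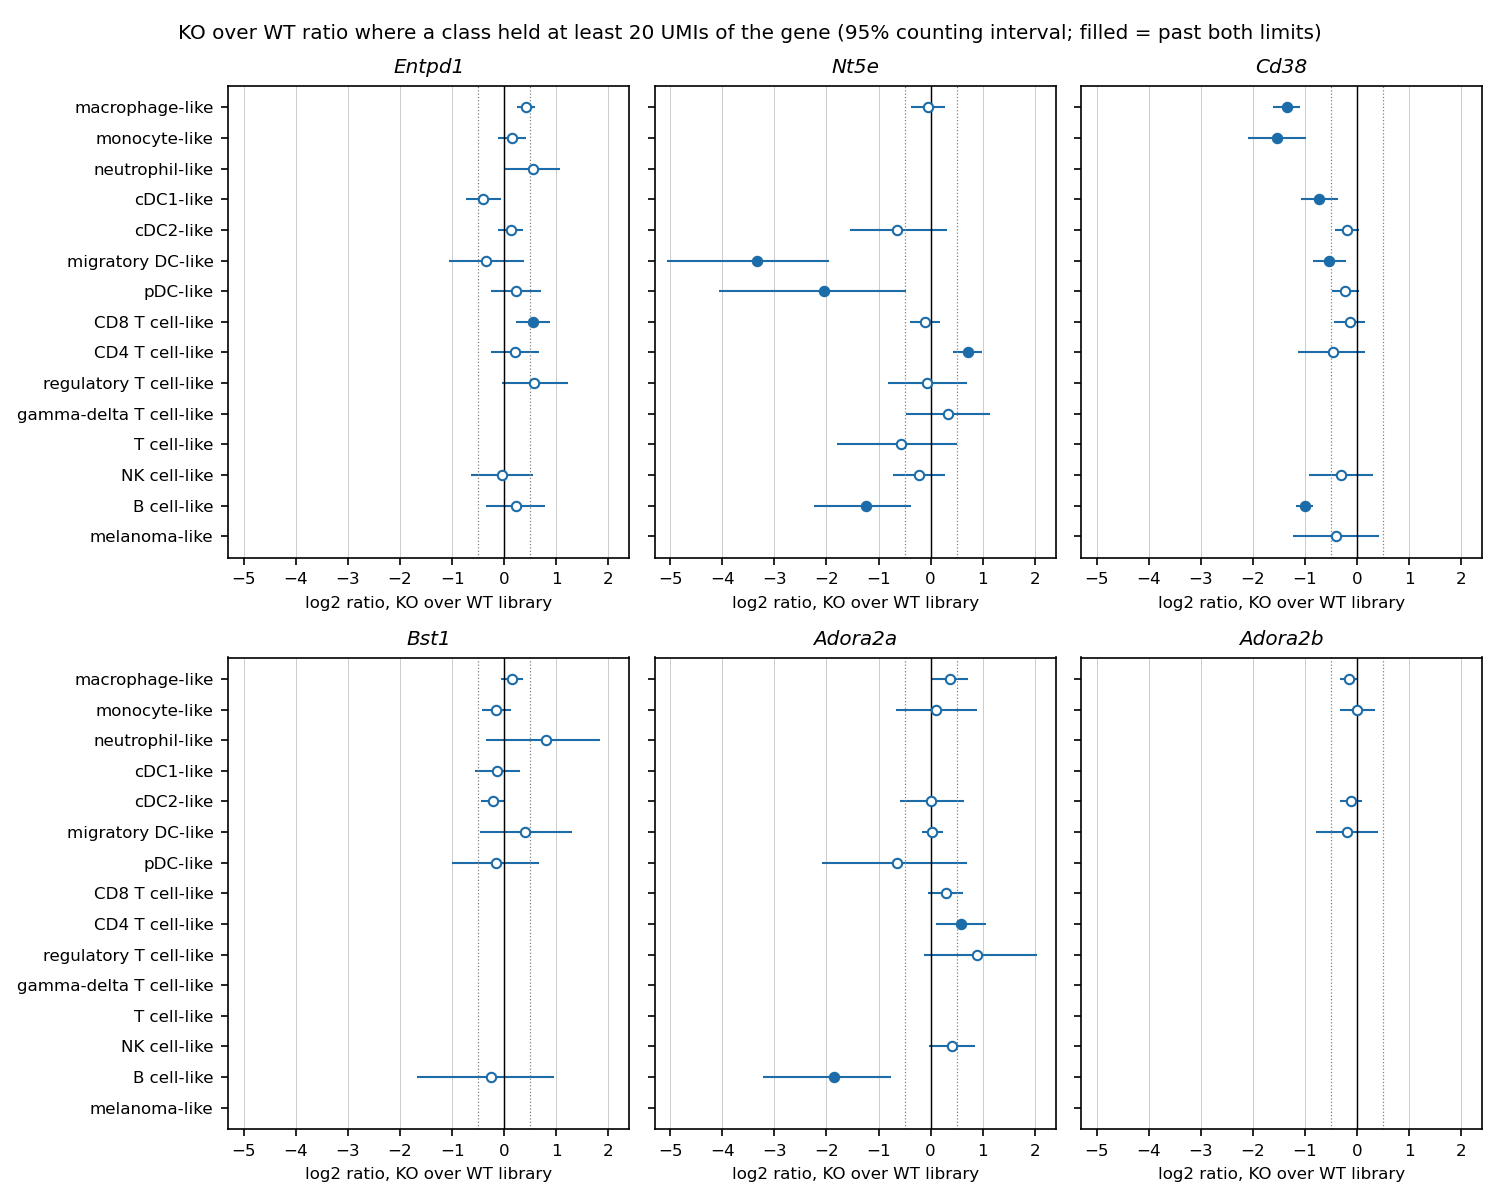
KO over WT log2 ratio of each gene in each class with at least 20 UMIs, with 95% counting intervals; filled points are past a size of 0.5 (dotted lines) with an interval that leaves out 0. The Cd38 points all lie left of 0, and the filled points to the right of 0 are Entpd1 in CD8 T cell-like cells and Nt5e and Adora2a in CD4 T cell-like cells.

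The members' counts are given beside the share of all genes that the same rule called in the same class. In macrophage-like cells 0 of 6 members were higher and 1 lower, where 7.23% and 5.57% of 10856 genes were called higher and lower. In monocyte-like cells 0 of 5 were higher and 1 lower (5.9% and 5.19% of all genes), in cDC1-like cells 0 of 3 and 1 (4.52% and 2.68%), in migratory DC-like cells 0 of 6 and 2 (4.55% and 9.06%) and in pDC-like cells 0 of 5 and 1 (3.81% and 3.95%). In B cell-like cells 0 of 5 members were higher and 3 lower (3.75% and 8.44% of 10867 genes). In CD8 T cell-like cells 1 of 4 was higher and 0 lower (8.49% and 4.37%), and in CD4 T cell-like cells 2 of 4 and 0 (4.13% and 3.47%). In cDC2-like cells 0 of 6 were called (4.68% higher and 4.65% lower over all genes) and in NK cell-like cells 0 of 4 (3.11% and 3.94%). With so few members a share says little, and the values of each gene are given in turn.

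**Figure D2:**
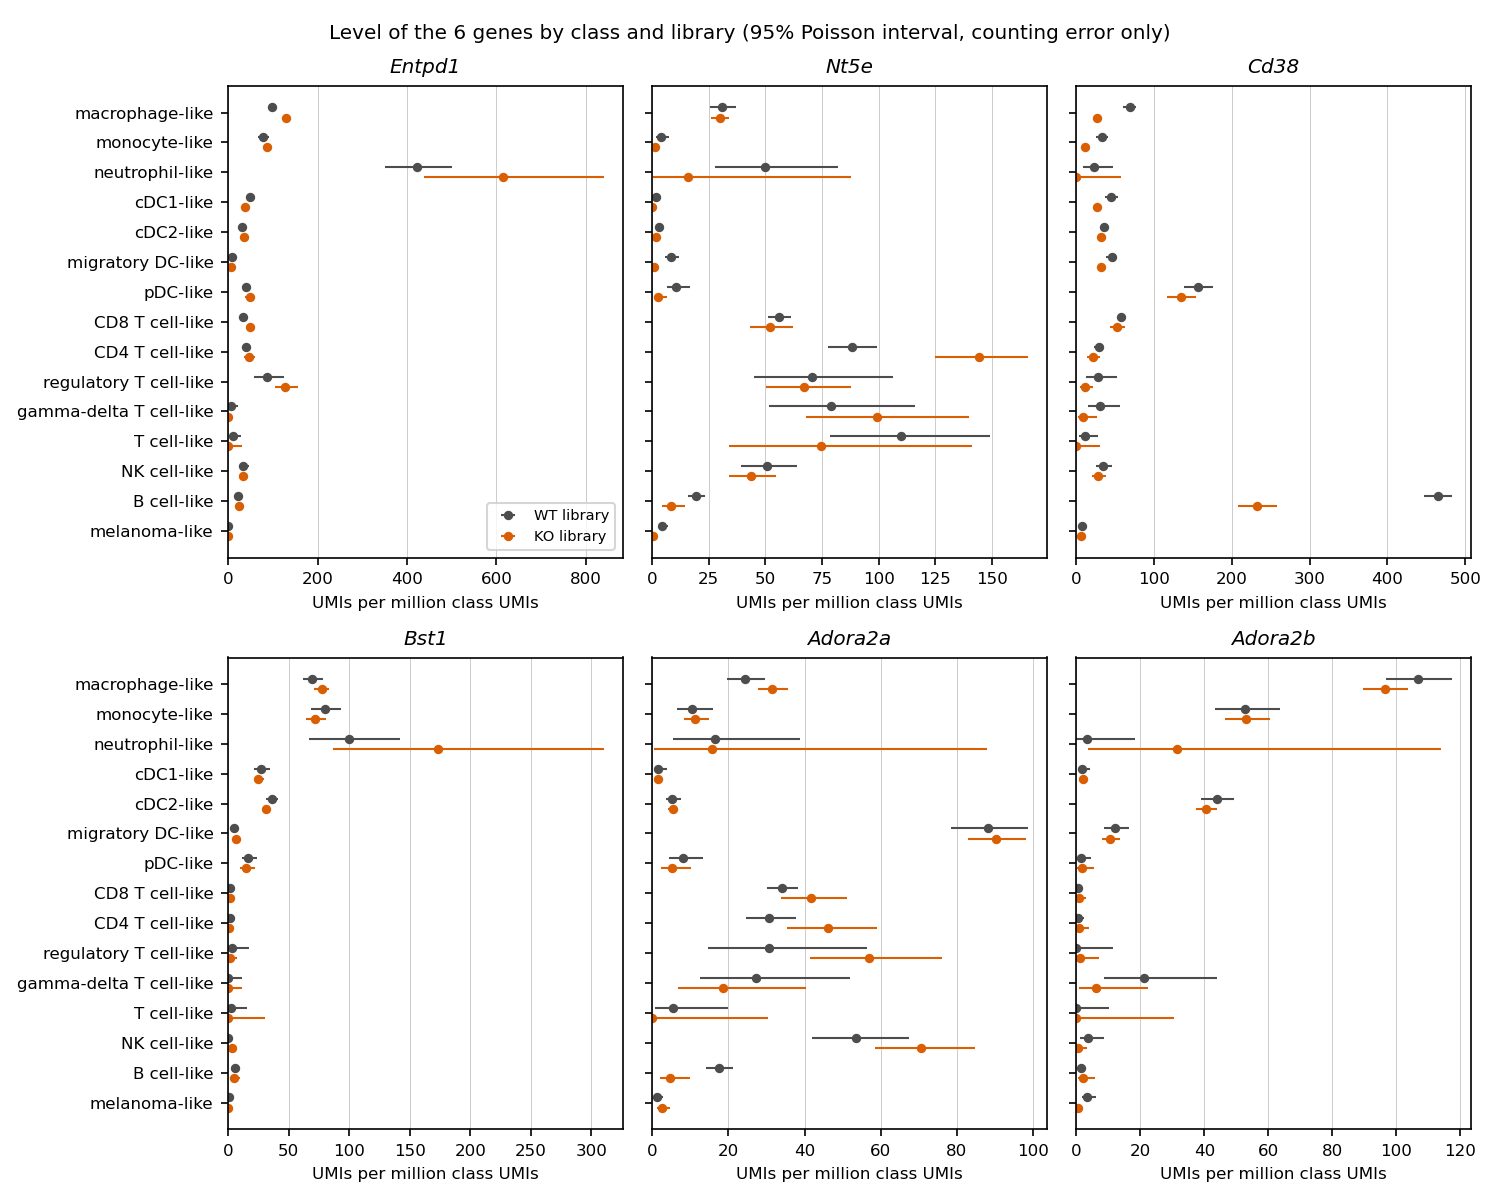
Level of each gene in CPM of the class total, by class (rows) and library (WT grey, KO orange), with 95% Poisson intervals; each panel has its own linear axis. Entpd1 is highest in neutrophil-like cells, Nt5e in T cell-like classes, Cd38 in B cell-like cells, Bst1 and Adora2b in myeloid classes and Adora2a in migratory DC-like cells.

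Entpd1, the gene of the ATP-degrading enzyme CD39, was highest in neutrophil-like cells, at 421 CPM in WT (351 to 501, 127 UMIs in 129 cells) and 615 CPM in KO (437 to 840, 39 UMIs in 24 cells). The 5 KO neutrophil-like cells richest in Entpd1 held 66.7% of its UMIs. Its ratio of 0.54 had an interval that reached below 0 (-0.01 to 1.07). Without the 5 richest cells of each library the ratio was -0.38 (-1.35 to 0.46).

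Macrophage-like cells came next in both libraries, with 97.6 CPM in WT (88.2 to 108) and 130 CPM in KO (122 to 138). The 2 intervals did not overlap, but the ratio of 0.41 (0.24 to 0.59) stayed under the size that was called. Of these cells 44.6% in WT and 55.6% in KO had an Entpd1 UMI, and 9.98% and 11.9% when each cell was thinned to 1000 UMIs. In migratory DC-like cells, which held little Entpd1, 5.22% and 5.37% had a UMI, at median depths of 7856 and 10276.5 UMIs against 8875 and 10282 in macrophage-like cells. Regulatory T cell-like cells followed, with 86.1 CPM in WT (57.2 to 124, 28 UMIs) and 128 CPM in KO (104 to 155, 101 UMIs), and did not differ from macrophage-like cells beyond the counting intervals in either library. Their ratio of 0.57 (-0.05 to 1.23) was not called. Monocyte-like cells had 78.8 and 87.3 CPM, below macrophage-like cells in KO by intervals that did not overlap. In cDC1-like cells Entpd1 was at 48.5 CPM in WT against 36.7 CPM in KO, a ratio of -0.40 (-0.73 to -0.07), the opposite direction to macrophage-like cells. That difference in direction has no test. The pDC-, CD4 T cell-, NK cell- and cDC2-like classes lay between 32.0 and 40.8 CPM in WT and between 33.2 and 47.8 CPM in KO, with neighbouring intervals that overlapped. The NK cell- and CD4 T cell-like values were sums over unlike clusters. The larger NK cell-like cluster had 47.9 and 44.5 CPM and the smaller 6.68 and 2.27 CPM (3 and 1 UMIs). The larger CD4 T cell-like cluster had 45.3 and 60.6 CPM and the smaller 18.2 and 21.6 CPM. The level was 21 and 24.7 CPM in B cell-like cells and 8.67 and 6.79 CPM in migratory DC-like cells. Gamma-delta T cell-like cells held 2 UMIs in WT and 0 in KO, where 3 counts would be 9.30 CPM, and melanoma-like cells held 2 UMIs in each library.

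The CD8 T cell-like class was where Entpd1 was called higher in KO. It stood at 32.8 CPM in WT (29.0 to 37.0, 271 UMIs) and 48.3 CPM in KO (39.8 to 58.1, 112 UMIs), a ratio of 0.56 (0.23 to 0.88). In WT 15.6% and in KO 22.7% of the cells had a UMI, and 2.95% and 5.83% after thinning. The median depth was near equal, 5547 and 5598 UMIs. The class was made of 5 clusters that the libraries filled differently. In the pair of large Gzmk-expressing clusters, which held 579 and 560 of the 1393 WT cells, Entpd1 was at 28.9 against 50.2 CPM and at 31.7 against 48.0 CPM, with ratios of 0.80 (0.14 to 1.42) and 0.60 (-0.13 to 1.27). In the cluster with Tcf7 among its leading genes, which held the most KO cells (108), it was lower in KO, at 32.1 against 22.9 CPM (-0.49, -1.58 to 0.53). The cluster led by Ccl1, Gzmc and Pdcd1 had the highest level, 84.7 and 67.2 CPM, and held 19 WT and 39 KO cells. The part of this difference in cluster shares in the class value was not tested. B cell markers were at 46.5 and 25.4 CPM in this class, and among CD8 T cell-like cells with no UMI of them the ratio was 0.55. Other marker lists were higher in KO. The 5 regulatory T cell markers together were at 172 and 517 CPM with 5 of 5 higher, but Foxp3, the gene that defines those cells, had 3 and 12 UMIs, and the others (Ikzf2, Il2ra, Ctla4 and Tnfrsf4) are also known from activated T cells. Without cells holding a Foxp3 UMI the Entpd1 ratio was 0.53 (0.19 to 0.85). Among the 837 WT and 161 KO cells with no UMI of the 5 markers Entpd1 was at 31.3 and 28.8 CPM, a ratio of -0.12 (-0.81 to 0.51), so that the higher KO value was not seen in them. The cDC1 markers were at 48.8 and 149 CPM, mostly Irf8 (34.6 and 135 CPM), and the migratory DC markers at 68.1 and 176 CPM, mostly Ccr7 (23.2 and 118 CPM), and their part in the result was not tested. The call was not kept with cells limited to at most 10% (0.41, -0.015 to 0.81) or 20% (0.47, 0.088 to 0.84) mitochondrial UMIs, or without the 5 richest cells of each library (0.40, 0.036 to 0.75). Over all T cells Entpd1 was at 34.5 and 56.1 CPM (0.70, 0.48 to 0.92), where 9.67% of 12593 genes were called higher. Regulatory T cell-like cells made up 54 of 2261 WT but 106 of 851 KO T cells, and without that class the T cell level was 33.1 and 42.4 CPM, a ratio of 0.35 (0.090 to 0.62) that was not called.

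Nt5e, the gene of the adenosine-producing enzyme CD73, was highest in T cell classes. In WT the Lef1- and Tcf7-led T cell-like cells had 110 CPM (78.3 to 149), CD4 T cell-like cells 88.0 CPM, gamma-delta T cell-like cells 79.1 CPM and regulatory T cell-like cells 70.7 CPM, with intervals that overlapped. CD8 T cell-like cells had 56.0 CPM (51.1 to 61.4) in WT and 52.2 CPM in KO, below CD4 T cell-like cells in both libraries by intervals that did not overlap. NK cell-like cells had 50.5 and 43.5 CPM, a sum over 2 unlike clusters. The larger, led by Klra4, Klra9 and Ncr1, had 31.2 CPM in WT (20.7 to 45.1) and 32.1 CPM in KO, below CD8 T cell-like cells in WT. The smaller, with T cell markers at 4046 against 1073 CPM in the larger in WT, had 89.1 CPM (63.6 to 121) and 74.9 CPM. Macrophage-like cells held 30.9 and 29.8 CPM, above the monocyte- and dendritic cell-like classes by intervals that did not overlap. Their large cluster, led by Arg1, Ccl2 and Ccl7, had 32.5 and 30.5 CPM. Their small one, led by Ccl8, Igf1 and Folr2, had 7.71 and 4.82 CPM on 2 and 1 UMIs. Neutrophil-like cells held 15 UMIs in WT (49.8 CPM) and 1 in KO. In cDC2-like cells the level was 2.82 and 1.81 CPM, in monocyte-like cells 3.84 and 1.15 CPM, and in cDC1-like cells 4 UMIs in WT and 0 in KO, where 3 counts would be 0.548 CPM. The ratio in macrophage-like cells was -0.05 (-0.37 to 0.28).

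In CD4 T cell-like cells Nt5e was higher in the KO library, at 88.0 CPM in WT (77.7 to 99.4, 261 UMIs) against 144 CPM in KO (125 to 166, 197 UMIs), a ratio of 0.71 (0.44 to 0.98). In WT 20.9% and in KO 30.8% of these cells had a UMI (median depths 4485 and 3982 UMIs), and 7.64% and 11.3% after thinning. In cDC2-like cells, which held little Nt5e, the shares were 2.17% and 1.06% at median depths of 11285 and 14046 UMIs. The class was made of 2 clusters that did not behave alike. In the larger cluster, led by Cd40lg, Cd4 and Icos (470 WT and 187 KO cells), Nt5e was at 61.0 and 136 CPM (1.16, 0.80 to 1.52). In the smaller one, with Tcf7, Il7r and Nt5e itself among its leading genes (162 and 128 cells), it was at 193 and 157 CPM (-0.30, -0.73 to 0.13). Nt5e was among the variable genes of the first clustering. Whether it was among those of the second, which formed these clusters, was not recorded, so the split by cluster is a description. When T and NK cells were not clustered a second time the class ratio was 0.30 (0.065 to 0.52), and with every cell thinned to 1000 UMIs it was 0.48 (-0.12 to 1.07), neither of which was called. Other lists were lower in KO in this class, with cell cycle markers at 182 and 103 CPM (5 of 6 lower), NK cell markers at 77.6 and 43.9 CPM (7 of 8 lower) and erythroid markers at 541 and 0 CPM. Most of the erythroid UMIs came from 1 cell, which held 1202 of the 1240 Hbb-bs UMIs. Among the 326 WT and 205 KO cells with no UMI of these 3 lists Nt5e was at 92.8 and 111 CPM, and the ratio of 0.26 (-0.14 to 0.66) was not called.

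Nt5e was called lower in KO in 3 classes, each with few UMIs. B cell-like cells had 19.4 CPM in WT (109 UMIs) and 8.24 CPM in KO (12 UMIs), a ratio of -1.24 (-2.23 to -0.37). The pDC-like cells had 10.7 CPM (20 UMIs) and 2.58 CPM (4 UMIs), a ratio of -2.05 (-4.06 to -0.48). Migratory DC-like cells had 8.38 CPM (29 UMIs) and 0.828 CPM (5 UMIs), a ratio of -3.34 (-5.07 to -1.95). T cell markers moved the same way in each. They were at 105 and 26.8 CPM in B cell-like cells, 493 and 41.3 CPM in pDC-like cells and 553 and 113 CPM in migratory DC-like cells, with 6 of 6 lower in KO each time. Among migratory DC-like cells with no UMI of the B and T cell markers (236 WT and 463 KO cells) 3 and 2 Nt5e UMIs were left, and among such pDC-like cells 3 and 0. At those counts no ratio can be read. When the 6 members were left out of the genes used to cluster, migratory DC-like cells held 7 and 9 Nt5e UMIs and the ratio was -0.81 (-2.41 to 0.85). The call of this class was lost under 8 of the 16 alternatives with an interval, each of which left fewer than 20 UMIs. Among B cell-like cells with no UMI of the T cell markers the ratio was -1.41 (-2.60 to -0.41), with 73 and 9 UMIs. In the larger B cell-like cluster alone it was -0.31 (-1.43 to 0.70, 36 and 11 UMIs) and not called, and without the 5 B cell-like cells of each library with most Nt5e it was -2.51, on 88 and 4 UMIs. In WT T cells there were 0.982 Nt5e UMIs per 100 UMIs of the T cell markers. At that ratio the marker level goes with 5.43 of the 8.38 CPM of Nt5e in WT migratory DC-like cells and 4.84 of the 10.7 CPM in WT pDC-like cells, and at the ratio of the T cell cluster richest in Nt5e with 20.5 and 18.2 CPM, more than was measured. In B cell-like cells the values at these ratios were 1.03 and 3.87 of 19.4 CPM. Among B cell-like cells with no UMI of the plasma cell and cell cycle markers Nt5e was at -0.87 (-2.15 to 0.20) and not called.

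**Figure D3:**
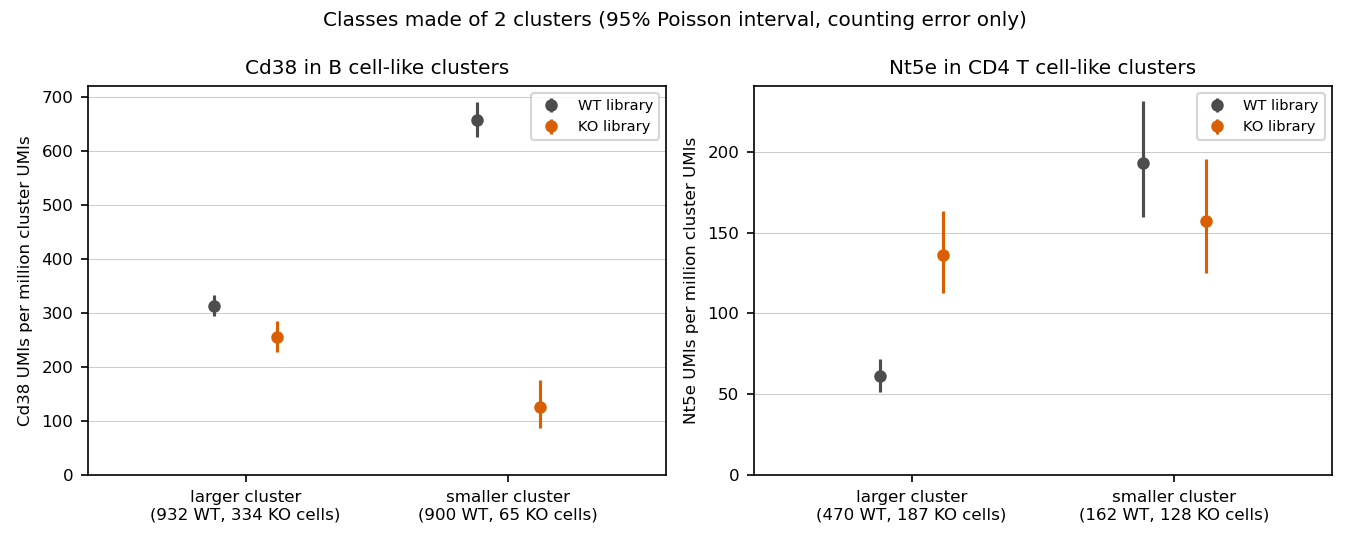
Cd38 in the 2 B cell-like clusters (left) and Nt5e in the 2 CD4 T cell-like clusters (right), in CPM of the cluster total, WT grey and KO orange, with 95% Poisson intervals. Cd38 is 657 and 126 CPM in the smaller B cell-like cluster and 314 and 255 CPM in the larger; Nt5e is 61.0 and 136 CPM in the larger CD4 T cell-like cluster and 193 and 157 CPM in the smaller.

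Cd38, the gene of the NAD-consuming enzyme, was highest in B cell-like cells and second in pDC-like cells in both libraries. B cell-like cells had 465 CPM in WT (447 to 483, 2611 UMIs) and 232 CPM in KO (208 to 258, 338 UMIs), a ratio of -1.0 (-1.17 to -0.84). A Cd38 UMI was found in 53.2% of WT and 48.4% of KO cells, and in 33.4% and 23.9% after thinning. Their median depths were 2455.5 and 3178 UMIs. In melanoma-like cells, with median depths of 1024 and 813 UMIs, 11.5% and 17.0% had a Cd38 UMI, at 8.10 and 6.13 CPM.

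The difference between the libraries was far larger in 1 of the 2 B cell-like clusters. The larger, led by Vpreb3, Fcmr and Cd79a (932 WT and 334 KO cells), had 314 CPM in WT against 255 CPM in KO, a ratio of -0.30 (-0.49 to -0.11) that was not called. The smaller, with Cd22, Bank1 and Cd38 itself among its leading genes, held 900 WT but only 65 KO cells, at median depths of 1175.5 and 1113 UMIs, and had 657 and 126 CPM, a ratio of -2.39 (-2.93 to -1.89). Its KO cells also held less of the B cell markers, 2522 against 5497 CPM in WT, while in the larger cluster these were at 8490 and 8147 CPM. Cd38 was among the genes used to cluster, and the share of the class in the smaller cluster differed between the libraries. Over the class, plasma cell markers were higher in KO, at 984 and 4565 CPM (4 of 4 higher), as were cell cycle markers, at 52.5 and 123 CPM (6 of 6). Most of the plasma cell marker UMIs were of Jchain, which was found in 55 WT and 14 KO cells. Without those cells Cd38 was at 477 and 261 CPM (-0.87, -1.04 to -0.70), and among cells with no UMI of the plasma cell and cell cycle markers at 488 and 246 CPM (-0.99, -1.20 to -0.79).

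In pDC-like cells Cd38 was at 157 CPM in WT (139 to 176) and 134 CPM in KO (117 to 154), a ratio of -0.22 (-0.48 to 0.04). The class of CD8 T cells had 57.9 and 52.6 CPM, NK cell-like cells 34.9 and 28.4 CPM and CD4 T cell-like cells 29.3 and 21.2 CPM, each with overlapping intervals and no call. Over all T cells the level was 48.0 and 33.1 CPM (-0.54, -0.79 to -0.28), where 3.44% of genes were called lower, although none of the T cell classes passed the rule. That call was not kept with cells limited to 10% mitochondrial UMIs (-0.48), thinned to 1000 UMIs (-0.52) or without the regulatory T cell-like class (-0.38). CD8 T cell-like cells, the T cell class with the most Cd38, made up 1393 of 2261 WT but 326 of 851 KO T cells.

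Among myeloid cells Cd38 was lower in KO in macrophage-, monocyte-, cDC1- and migratory DC-like cells. The lower value in KO macrophages was already known when Cd38 was chosen, so it is not an independent result. Macrophage-like cells had 68.5 CPM in WT (60.6 to 77.1, 273 UMIs) and 26.8 CPM in KO (23.3 to 30.7, 207 UMIs), a ratio of -1.35 (-1.62 to -1.09). A UMI was found in 24.2% of WT and 13.7% of KO cells, at median depths of 8875 and 10282 UMIs, and in 6.21% and 1.92% after thinning. Monocyte-like cells had 32.7 and 11.3 CPM (68 and 49 UMIs), a ratio of -1.53 (-2.09 to -0.98). The cDC1-like cells had 44.3 and 26.8 CPM, a ratio of -0.72 (-1.08 to -0.36), and migratory DC-like cells 45.4 and 31.3 CPM, a ratio of -0.54 (-0.85 to -0.22). The cDC2-like cells had 35.9 and 31.3 CPM, a ratio of -0.20 (-0.43 to 0.04). In WT, macrophage-like cells stood above the cDC1- and migratory DC-like cells by intervals that did not overlap, whereas in KO the macrophage-, cDC1-, cDC2- and migratory DC-like intervals all overlapped. Monocyte-like cells were the lowest of these 5 classes in both libraries. Over all myeloid cells Cd38 was at 55.2 and 31.6 CPM (-0.80, -0.92 to -0.69), where 4.05% of 15174 genes were called higher and 7.78% lower.

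B cell markers were lower in KO in the same classes. They stood at 111 CPM in WT against 9.98 CPM in KO macrophage-like cells, 76.9 and 14.8 CPM in monocyte-like cells, 71.0 and 19.5 CPM in cDC1-like cells and 125 and 13.1 CPM in migratory DC-like cells. Plasma cell markers were lower as well in macrophage-like cells (574 and 233 CPM) and migratory DC-like cells (255 and 48.5 CPM). In each, 1 WT cell held nearly all Jchain UMIs, 1363 of 1372 and 653 of 665. Without the cells holding a Jchain UMI Cd38 was at 70.7 and 26.7 CPM in macrophage-like cells (-1.41, -1.67 to -1.14) and at 45.0 and 31.5 CPM in migratory DC-like cells (-0.52, -0.83 to -0.20). Cell cycle markers were at 225 and 53.3 CPM in migratory DC-like cells, and among those with no UMI of them Cd38 was at -0.49 (-0.88 to -0.094), which was not called. In WT B cell-like cells there were 6.65 Cd38 UMIs per 100 UMIs of the B cell markers. At that ratio the marker level of WT macrophage-like cells goes with 7.40 of their 68.5 CPM of Cd38, and with 13.3 CPM at the higher ratio of the smaller B cell-like cluster. Among macrophage-like cells with no UMI of the B and T cell markers (268 WT and 627 KO) Cd38 was at 69.5 and 27.5 CPM, a ratio of -1.34 (-1.67 to -1.01), as large as in the whole class. In such cDC1-like cells it was at 50.2 and 27.5 CPM (-0.87, -1.32 to -0.41). In such cDC2-like cells it was at 40.0 and 30.1 CPM, and the ratio of -0.41 (-0.71 to -0.11) stayed under the size that was called. Thinned to 1000 UMIs, cDC1-like cells kept 12 and 8 Cd38 UMIs and their ratio of -1.41 (-2.90 to 0.0066) was not called. In monocyte-like cells with no UMI of the B and T cell markers Cd38 was at 16.7 and 11.5 CPM (20 and 42 UMIs). The ratio of -0.53 had an interval that reached above 0 (-1.33 to 0.31). Such migratory DC-like cells had 28.8 and 30.8 CPM, a ratio of 0.10 (-0.42 to 0.64), so that the lower KO value of this class was not seen without cells holding lymphocyte markers. For the migratory class the call was lost under 10 of the 17 alternatives that gave an interval, this one included, with ratios from -0.55 to 0.10.

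**Figure D4:**
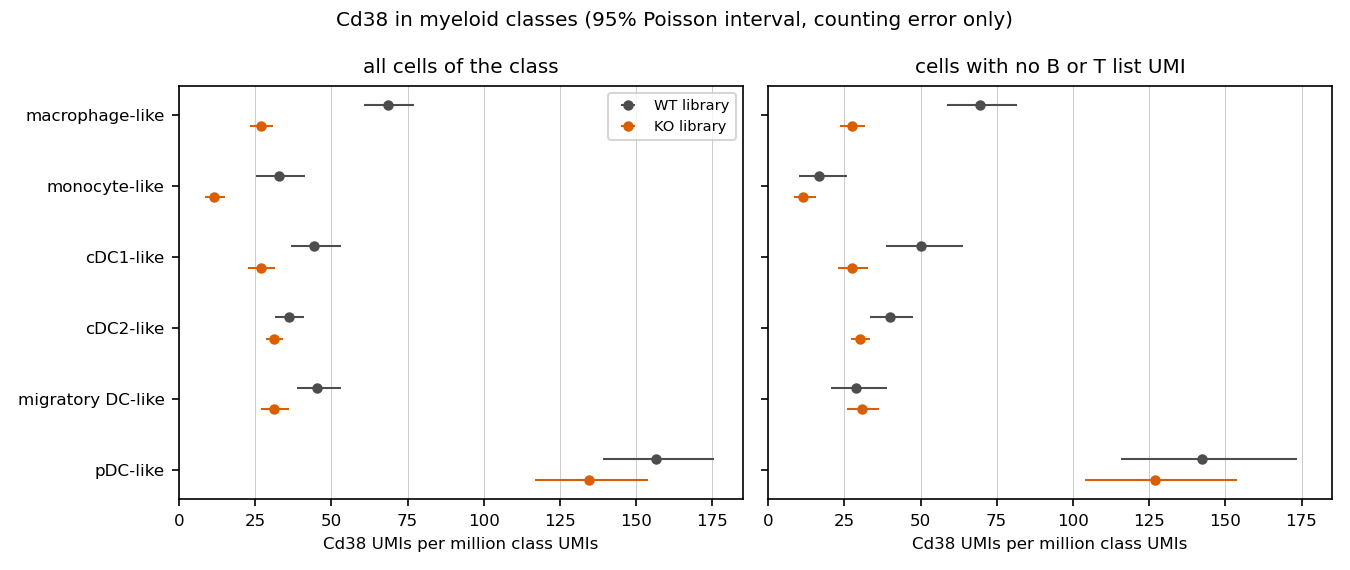
Cd38 in 6 myeloid classes, in CPM of the class total with 95% Poisson intervals, over all cells of the class (left) and over cells with no UMI of the B and T cell markers (right), WT grey and KO orange. The libraries stay apart in macrophage-like cells (69.5 and 27.5 CPM) and cDC1-like cells (50.2 and 27.5 CPM) and overlap in monocyte- and migratory DC-like cells on the right. The cDC2-like cells are at 40.0 and 30.1 CPM on the right.

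Both macrophage-like clusters had the lower KO value. The larger, led by Arg1, Ccl2 and Ccl7 (398 WT and 689 KO cells), had 66.6 and 27.3 CPM (-1.29, -1.56 to -1.01). The smaller, led by Ccl8, Igf1 and Folr2 (64 and 49 cells), had 96.4 and 9.63 CPM on 25 and 2 UMIs (-3.32, -6.45 to -1.32). Cd38 differed in the same direction in cells with either set of leading genes.

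Bst1, the gene of CD157, was highest in myeloid classes. Neutrophil-like cells had 99.6 CPM in WT (67.2 to 142, 30 UMIs) and 173 CPM in KO (86.5 to 310, 11 UMIs), with a ratio of 0.80 (-0.34 to 1.84). Monocyte-like cells had 80.3 and 72.0 CPM and macrophage-like cells 69.5 and 77.1 CPM, and monocyte- and macrophage-like cells did not differ beyond the intervals in either library. In KO the neutrophil-like interval, on 11 UMIs, lay above the monocyte-like one (64.3 to 80.5 CPM). The cDC2-like cells (35.9 and 30.9 CPM) and cDC1-like cells (27.5 and 25.0 CPM) came below all of these classes, and pDC-like cells had 16.6 and 14.9 CPM. B cell-like cells had 5.69 and 4.81 CPM and migratory DC-like cells 4.91 and 6.46 CPM. All T cells together held 16 UMIs in WT and 5 in KO (1.31 and 1.02 CPM), and NK cell-like cells 0 and 5. The WT count of 0 in NK cell-like cells allows up to 2.23 CPM at 3 counts.

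Bst1 differed between the libraries in no class by the rule, with ratios of 0.15 (-0.06 to 0.36) in macrophage-like, -0.16 (-0.43 to 0.12) in monocyte-like and -0.22 (-0.45 to 0.02) in cDC2-like cells. In the small Ccl8-, Igf1- and Folr2-led macrophage cluster it was at 84.8 and 19.3 CPM on 22 and 4 UMIs (-2.14, -4.14 to -0.58), and in the large Arg1-led cluster at 68.4 and 78.7 CPM (0.20, -0.01 to 0.42). Over all kept cells Bst1 was higher in KO, 19.5 and 29.6 CPM (0.60, 0.49 to 0.71), where 12% of 18301 genes were called higher. Myeloid classes made up 26.4% of kept WT and 59.3% of kept KO cells, so that whole-library value was not a value per cell type. Adora2b showed the same, with 20.2 and 31.1 CPM over all kept cells (0.62, 0.51 to 0.73).

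Adora2a, the gene of the higher-affinity of these adenosine receptors, was highest in migratory DC-like cells, the dendritic cells that express Ccr7. They had 88.1 CPM in WT (78.5 to 98.6, 305 UMIs) and 90.3 CPM in KO (82.9 to 98.2, 545 UMIs), a ratio of 0.03 (-0.17 to 0.24). An Adora2a UMI was found in 42.9% and 54.2% of them, against 1.44% and 1.61% of cDC1-like cells, which were sequenced more deeply (medians 7856 and 10276.5 against 12438 and 15193.5 UMIs). The cDC2-like cells had 5.33 and 5.37 CPM and cDC1-like cells 1.53 and 1.46 CPM. Both migratory clusters held the gene, at 83.2 and 85.1 CPM in the larger and 135 and 154 CPM in the smaller, shallower one.

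NK cell-like cells were second, with 53.5 CPM in WT (41.8 to 67.4) and 70.7 CPM in KO (58.5 to 84.7), and the ratio was 0.40 (-0.03 to 0.85). Their intervals overlapped those of regulatory T cell-like cells in both libraries (14.7 to 56.5 CPM in WT and 41.5 to 76.1 CPM in KO). In KO they also overlapped those of CD4 T cell-like and migratory DC-like cells. CD8 T cell-like cells had 34.1 and 41.8 CPM (0.29, -0.05 to 0.63) and regulatory T cell-like cells 30.7 and 56.9 CPM on 10 and 45 UMIs (0.89, -0.12 to 2.04), and neither ratio was called. In WT the CD8, regulatory and CD4 T cell-like classes followed NK cell-like cells in that order, and in KO the regulatory class came before the CD4 and CD8 classes, with intervals that overlapped among these 3 in each library. In CD4 T cell-like cells Adora2a was called higher in KO, at 30.7 CPM in WT (24.7 to 37.7, 91 UMIs) and 46.1 CPM in KO (35.4 to 59.0, 63 UMIs), a ratio of 0.59 (0.10 to 1.07). The 2 intervals of the level overlapped, and 12.3% and 16.2% of cells had a UMI, 2.87% and 2.58% after thinning to 1000 UMIs. Thinned to that depth, the summed ratio was 0.02 (-1.32 to 1.25) on 18 and 9 UMIs. The call was also not kept at 20% mitochondrial UMIs (0.44), with the 6% highest doublet scores removed (0.36), at resolution 0.5 (0.46), with scaled genes (0.49) in cells with at least 2 of their own markers (0.50) or in cells with no UMI of the NK cell, erythroid and cell cycle markers (0.47). Macrophage-like cells had 24.3 and 31.5 CPM (0.37, 0.03 to 0.73), and monocyte-like cells 10.6 and 11.3 CPM. In the large Arg1-led macrophage cluster Adora2a was at 26.0 and 32.2 CPM, and the small Folr2-led cluster held 0 and 1 UMIs.

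B cell-like cells went the other way, with 17.4 CPM in WT (14.2 to 21.3, 98 UMIs) and 4.81 CPM in KO (1.93 to 9.90, 7 UMIs), a ratio of -1.86 (-3.21 to -0.76). T cell markers were at 105 and 26.8 CPM in the same cells. Among B cell-like cells with no UMI of those markers the ratio was -1.87. In the larger B cell-like cluster alone 31 and 3 UMIs gave 9.84 and 2.51 CPM (-1.97, -4.32 to -0.29). In the smaller cluster 67 and 4 UMIs gave 27.1 and 15.2 CPM, and the ratio of -0.83 (-2.75 to 0.59) was not called. The smaller cluster held 900 WT but 65 KO cells, and the part of this difference in the class value was not tested. With every cell thinned to 1000 UMIs, 26 and 2 UMIs were left, and the ratio of -1.75 (-4.87 to 0.25) was not called. Without the 5 cells of each library with most Adora2a it was -4.47, on 87 and 1 UMIs.

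Adora2b, the gene of the lower-affinity receptor, was found in macrophage-like cells at 107 CPM in WT (96.8 to 117, 425 UMIs) and 96.3 CPM in KO (89.5 to 103, 743 UMIs), a ratio of -0.15 (-0.32 to 0.03). It was at 114 and 98.5 CPM in the large Arg1-led macrophage cluster. The small Folr2-led cluster held 2 and 3 UMIs, at 7.71 and 14.4 CPM. Monocyte-like cells followed with 52.9 and 53.1 CPM and cDC2-like cells with 43.9 and 40.5 CPM. Their intervals overlapped in WT (43.4 to 63.7 and 38.9 to 49.4 CPM) and did not in KO (46.5 to 60.4 and 37.3 to 43.8 CPM). Migratory DC-like cells had 12.1 and 10.6 CPM. The cDC1-like cells, related to cDC2 by lineage, had 1.91 and 2.01 CPM, and the T cell-, B cell- and pDC-like classes held at most 9 UMIs per library. Within the 4 classes with at least 20 UMIs the ratios ran from -0.20 to 0.01. In macrophage-like cells 41.8% and 47.0% had a UMI, and 9.76% and 8.37% after thinning. In cDC1-like cells, which were deeper, the shares were 2.39% and 2.96%.

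UMIs of paired members were also counted within cells. Entpd1 and Nt5e, which act in sequence, were both found in 28 WT (6.06%, 4.06 to 8.64) and 53 KO (7.18%, 5.43 to 9.29) macrophage-like cells. An Nt5e UMI was found in 13.6% of WT macrophage-like cells with an Entpd1 UMI and 10.9% of those without, at median depths of 9668.5 and 7945.5 UMIs, with overlapping intervals. In CD4 T cell-like cells both were found in 15 WT (2.37%, 1.33 to 3.88) and 18 KO cells (5.71%, 3.42 to 8.88), and in regulatory T cell-like cells in 5 (9.26%) and 17 (16.0%). The joint shares of the 2 libraries had overlapping intervals in each of these classes. Cd38 and Bst1 were found together in 47 WT (10.2%, 7.57 to 13.3) and 45 KO (6.10%, 4.48 to 8.07) macrophage-like cells and in 20 (7.81%, 4.84 to 11.8) and 10 (2.23%, 1.07 to 4.06) monocyte-like cells, where the intervals did not overlap. Among monocyte-like cells with no UMI of the B and T cell markers the Cd38 ratio alone was -0.53 (-1.33 to 0.31). The joint share was not counted in those cells. Bst1 was found in 42.0% of WT macrophage-like cells with a Cd38 UMI and 32.0% of those without, and cells with a Cd38 UMI were deeper (medians 9690 and 8511 UMIs). Both adenosine receptors were found in 38 WT (8.23%) and 90 KO (12.2%) macrophage-like cells, and in none of the CD4 and regulatory T cell-like cells. In these 2 T cell classes a joint share cannot be read, because Adora2b had only 2 and 1 UMIs in the CD4 class and 0 and 1 in the regulatory class.

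Over the 28 sums of a class in 1 library with at least 50 cells, the genes most like each member were listed by the Pearson correlation of log2(CPM + 1) among 5949 genes with a mean of at least 20 CPM. These correlations are descriptions over sums that share libraries and depth. Entpd1 was most like Ncf4 (0.78), Bcl10 (0.77) and Itgb2 (0.77). Nt5e was most like Pitpnc1 (0.92), Itpkb (0.88) and Zfp654 (0.88). Cd38 was most like Gm30211 (0.85), the immunoglobulin light chain gene Iglc3 (0.83) and Haao (0.82). Among the genes most like Bst1 were the GM-CSF receptor gene Csf2ra and the nucleotide receptor gene P2ry6 (0.92 each). Adora2a was most like Ric1 (0.85), Gm38062 (0.84) and A630081D01Rik (0.84), and Adora2b like Clec4a3 (0.91), Ccl9 (0.90) and the macrophage growth factor receptor gene Csf1r (0.90). Among the members themselves the highest values were 0.62 for Entpd1 with Bst1, 0.60 for Bst1 with Adora2b and 0.59 for Nt5e with Adora2a. Bst1 and Nt5e had the lowest, -0.44. For the neighbouring genes Bst1 and Cd38 it was 0.21.

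A list of 62 further genes of extracellular purine and NAD metabolism (nucleotide receptors, other nucleotidases, adenosine deaminase and kinase, nucleoside transporters, NAD synthesis, sirtuins, PARPs and targets of cyclic AMP) was read by the same rule. In macrophage-like cells 43 of them had at least 20 UMIs. Of these 4 were higher in KO and 3 lower, where 7.23% and 5.57% of all genes were called. The median ratio was 0.05 against 0.03 over all genes. The higher ones were Parp14 (128 and 204 CPM, 0.68), Slc29a3, a nucleoside transporter of lysosomes (48.2 and 77.0 CPM, 0.68), Nr4a1 (707 and 1113 CPM, 0.65) and Parp9. The lower ones were Entpd6 (-1.08), the nicotinamide riboside kinase gene Nmrk1 (-0.77) and Dpp4 (-0.72). In monocyte-like cells 5 of 38 were higher and 0 lower (median 0.14 against 0.00), where 5.9% and 5.19% of all genes were called. Ryr1 (1.26), the ADP receptor gene P2ry12 (0.92) and Nampt, the rate-limiting enzyme of NAD salvage (96.6 and 160 CPM, 0.72) led.

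Nampt was also higher in several dendritic classes. In cDC2-like cells 5 of 47 list genes were higher, led by Pnp2 (1.16, which shares sequence with Pnp), Nampt (75.5 and 122 CPM, 0.70) and P2ry14 (0.62), and 1 was lower, Ada (-0.78), which inactivates adenosine. In cDC1-like cells 4 of 42 were higher, led by Sirt1 (0.79), Parp9 (0.55) and Dpp4 (0.54), and 1 was lower, Nmnat1 (-1.18). In migratory DC-like cells 3 of 37 were higher, Entpd7 (0.94), Nampt (0.79) and Nr4a1 (0.53), and 5 were lower, led by the nucleoside transporter gene Slc28a2 (-1.61), Adcy7 (-1.15) and the adenosine kinase gene Adk (-1.05). In pDC-like cells 4 of 36 were higher, led by Crem (0.85), Nadk (0.81) and Nampt (0.57). Over all genes 4.68% and 4.65% were called higher and lower in cDC2-like cells and 4.52% and 2.68% in cDC1-like cells. The shares were 4.55% and 9.06% in migratory DC-like cells and 3.81% and 3.95% in pDC-like cells. Nampt passed the rule in 4 of the 6 myeloid classes examined here, and lay below the WT value in B cell-like cells (37.0 and 18.5 CPM, -1.0).

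In CD8 T cell-like cells 5 of 40 list genes were higher, led by Nmrk1 (18.4 and 41.4 CPM, 1.17), the cyclic AMP-responsive Crem (35.0 and 72.4 CPM, 1.05) and Adk (0.64), and 1 was lower, the ATP-gated channel gene P2rx7 (-1.49). In CD4 T cell-like cells 6 of 36 were higher, led by Nmnat3 (1.53), the lysophospholipid receptor gene P2ry10 (107 and 198 CPM, 0.89) and Crem (76.2 and 127 CPM, 0.74), and 2 were lower, Entpd5 (-0.93) and Slc28a2 (-0.58). In B cell-like cells, where plasma cell and cell cycle markers were higher in KO as given above, 6 of 36 were higher, led by Ada (1.76), Nadk2 (1.04) and P2ry10 (156 and 273 CPM, 0.81), and 3 were lower, Sirt6 (-1.75), Nampt (-1.0) and Nadk (-0.64). Among B cell-like cells with no UMI of those markers P2ry10 (0.80) and Nampt (-1.22) were still called, Nadk2 (1.09), Sirt6 (-1.43) and Nadk (-0.49) were not, and Ada had 2 and 3 UMIs left. Over all genes 8.49% and 4.37% were called higher and lower in CD8 T cell-like cells. The shares were 4.13% and 3.47% in CD4 T cell-like cells and 3.75% and 8.44% in B cell-like cells. The list medians were -0.10 in CD8 T cell-like, 0.12 in CD4 T cell-like and -0.02 in B cell-like cells, against 0.01, -0.02 and -0.11 over all genes.

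Smaller classes gave fewer calls. In gamma-delta T cell-like cells 1 of 17 list genes was higher, P2ry10 (1.41), and 2 were lower, the adenosine receptor gene Adora3 (116 and 18.6 CPM on 38 and 6 UMIs, -2.64) and the nucleoside transporter gene Slc29a1 (-2.56), where 4.42% and 5.16% of 4613 genes were called. The class also held mast cell or basophil markers, at 15622 and 4329 CPM, above its own markers at 3852 and 2671 CPM. Among the 62 WT and 67 KO cells with no UMI of the mast cell or basophil markers Adora3 had 0 UMIs in both libraries, Slc29a1 5 and 2 UMIs, and P2ry10 was at 79.9 and 171 CPM (1.10, 0.30 to 1.95). In NK cell-like cells 1 of 32 was lower, Dpp4 (-1.0), where 3.11% of all genes were called higher and 3.94% lower. In regulatory T cell-like cells 0 of 20 was called (3.89% higher and 4.02% lower over all genes). In melanoma-like cells 6 of 36 were higher, led by Nmnat3 (1.25), P2rx7 (0.86) and Pde4b (0.78), and 5 were lower, led by the ATP-hydrolysing Enpp1 (-2.80 on 17 and 3 UMIs), Pnp (-1.30) and Slc29a1 (-0.72), where 15% and 7.51% of 11534 genes were called. The melanoma-like totals of 3458029 WT and 4244867 KO UMIs were spread unevenly, with median depths of 1024 and 813 UMIs per cell. At least 2000 UMIs were found in 53 of 122 WT and 37 of 94 KO cells, so deep cells weigh most in these sums. WT melanoma-like cells held fibroblast markers at 2132 CPM against 17.4 CPM in KO and erythroid markers at 4551 against 0.471 CPM. Among the 93 WT and 82 KO cells with no UMI of either list Enpp1 had 1 and 3 UMIs, Pnp was at -0.91 and Slc29a1 at -1.16, the last 2 still called. Of the 6 members only Cd38 had 20 UMIs in the melanoma-like class, at -0.40 (-1.23 to 0.42).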

How the data were processed

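The deposited matrices hold counts, the UMIs of each gene in each cell barcode, which the authors made with Cell Ranger 3.1.0 on GRCm38 per the submitters' processing notes, while the matrix header names 4.0.0. Those notes also name bcl2fastq 2.20 and Seurat 4.0.1, without a role. The smallest barcode total is 500 UMIs, and the labels' protocols aimed at 6000 to 8000 cells, against 9677 and 6356 barcodes here.

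A cell was used if it had at least 200 genes and no more than 15% of its UMIs were mitochondrial. Scrublet marked 0 WT and 2 KO cells, so it did not work as a doublet filter. Instead, clusters with a mean doublet score of at least 0.15 stayed unnamed. The cells were clustered in scanpy 1.11.5 (2000 variable genes, 30 components, 15 neighbours, Leiden resolution 1.0, igraph 0.11.9), and T and NK cells again with 1000 genes and 20 components. A class needed at least 3 of its markers, each in at least 10% of cells and over 2 times the level elsewhere. This recipe was settled after 4 versions were looked at, on cell type markers and before member ratios were computed, and the naming limits were set after clusters were seen. Nt5e and Cd38 were among the variable genes of the first clustering, so their levels in its clusters were partly chosen by it. Whether members were among those of the second clustering was not recorded.

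UMIs were summed per class and library, with exact intervals from scipy 1.17.1. The ratio rule was tested on simulated counts. Thinning drew 1000 UMIs per cell with a fixed seed, leaving out shallower cells. No test was possible with 1 library per genotype. Named genes were the 6 members, the 3 highest and 3 lowest called genes of the pathway list in each class, the 3 genes most like each member, Kcnj2 and Lyz2, and a gene that the rule names for Bst1 is not reported here. Members and lists were chosen with earlier results of these data known, among them the lower Cd38 of KO macrophages. Alternatives covered the mitochondrial limit, doublets, resolution, variable genes, centring, the denominator, weighting of cells and the UMI minimum, and, chosen after the data were seen, cells without markers of other cell types. Unnamed clusters entered only the values over all kept cells.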

Additional observations from a re-analysis of the deposited data

Results flagged for a closer look

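For 2 genes the KO over WT log2 ratio was called in opposite directions in different classes, and the difference between those classes was not tested. Nt5e was at 0.71 in CD4 T cell-like cells against -1.24 in B cell-like cells, -2.05 in pDC-like cells and -3.34 in migratory DC-like cells, the last 3 on 12, 4 and 5 KO UMIs. Adora2a was at 0.59 in CD4 T cell-like cells against -1.86 in B cell-like cells, the latter on 7 KO UMIs. T cell markers were lower in the KO library in the B cell-, pDC- and migratory DC-like classes, by the values given above.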

How the results depend on the processing

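Of the 56 ratios with at least 20 UMIs, 12 were called. Their 202 values under other settings lay inside the main interval 177 times, moved out of it 23 times and changed sign 2 times, and 10 of the 12 lost the call under at least 1 setting. Settings that gave no finite ratio were left out of these counts. Among them was Nt5e in pDC-like cells with no UMI of the B and T cell markers. It had 3 WT and 0 KO UMIs there, too few for a call, so the 10 does not include that ratio. Of the 44 ratios not called, 15 were called under at least 1 setting, 33 of 696 values in all, and 104 of the 696 had the other sign. Values that moved follow as log2 ratios, and unless stated the cause was not tested. At resolution 0.5 the macrophage-like class held only the Folr2-led cells, with Entpd1 at 0.90, Nt5e -3.22, Cd38 -2.96 and Bst1 -2.44, while Cd38 was at -1.02 in cDC2-like and Bst1 at -0.75 in migratory DC-like cells. At resolution 1.5 Entpd1 in migratory DC-like cells was at 0.88. With components centred per library, Entpd1 was at 0.24 in macrophage-like cells, and Nt5e at -2.07 and Cd38 at -0.98 in cDC2-like cells. With the members left out of the clustering, Cd38 was at -1.62 in macrophage-like cells, and Entpd1 at 0.47 and Nt5e at -0.81 in migratory DC-like cells. With the 6% highest doublet scores removed, Bst1 was at -0.059 in macrophage-like cells, Nt5e -2.90 and Cd38 -0.69 in cDC2-like, Nt5e -1.94 in migratory DC-like and Cd38 -0.80 in B cell-like cells. Without the 5 richest cells, Entpd1 was at -0.38 in neutrophil-like cells, and Nt5e at -2.51 and Adora2a at -4.47 in B cell-like cells. By the mean of each cell's own CPM, Nt5e was at 0.57 and Cd38 at -0.51 in cDC2-like cells, Nt5e at 0.40 in NK cell-like and Cd38 at -0.83 in B cell-like cells.

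Settings chosen after seeing the data gave the following. With variable genes scaled, which again left only the Folr2-led macrophages (64 and 49 cells), Entpd1 was at 0.63, Nt5e -0.79, Cd38 -3.49 and Bst1 -1.87, and Cd38 in monocyte-like cells at -0.85. With every cell thinned to 1000 UMIs, which leaves few UMIs, Cd38 was at -1.78, -0.81, -1.41, -0.50 and -0.59 in macrophage-, monocyte-, cDC1-, cDC2- and B cell-like cells, and Bst1 at -0.44 in macrophage-like cells. Entpd1 was then at -1.47, 1.09 and -0.42 in migratory DC-, CD8 and CD4 T cell-like cells, Nt5e at -1.47, 0.97 and -2.51 in migratory DC-, NK and B cell-like cells, and Adora2a at 0.018 in CD4 T cell-like cells. In cells with no B or T cell marker UMI, Cd38 was at -0.53 in monocyte-like and 0.10 in migratory DC-like cells, a change of sign of a called ratio, and Nt5e at 1.42 in NK cell-like cells, where the T cell markers remove most cells. Without a second clustering of T and NK cells, Entpd1 was at 0.76 and Nt5e at 0.30 in CD4 T cell-like cells. In CD8 T cell-like cells with no UMI of the regulatory T cell markers Entpd1 was at -0.12, the other change of sign of a called ratio. In CD4 T cell-like cells with no UMI of the NK cell, erythroid and cell cycle markers Nt5e was at 0.26, and in migratory DC-like cells with no UMI of the cell cycle markers Entpd1 was at 0.51 and Bst1 at -0.70. In the larger B cell-like cluster alone, Nt5e was at -0.31 and Cd38 at -0.30.

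Counts of called list genes moved by over 1.5 times as follows. Macrophage-like cells had 7, but 0 at resolution 0.5 and with scaled genes. NK cell-like cells had 1, but 0 at resolution 0.5 and without the second clustering, 2 with centring, the highest doublet scores removed, resolution 1.5 or at most 20% mitochondrial UMIs, and 3 with the members left out, scaled genes or at most 10%. Gamma-delta T cell-like cells had 3, but 1 with centring, scaled genes, resolution 1.5, either mitochondrial limit, at least 50 UMIs or no mast cell or basophil marker. Migratory DC-like cells had 8, but 13 at resolution 0.5, 5 at 1.5 and 4 without cell cycle markers. CD4 T cell-like cells had 8, but 5 without NK cell, erythroid and cell cycle markers. The pDC-like cells had 4, but 7 with centring and 2 with scaled genes, cDC2-like cells 6, but 10 with centring, and CD8 T cell-like cells 6, but 3 at resolution 1.5. Monocyte-like cells were not named, and so gave no value, at resolution 0.5, with centring, with the members left out or with the highest doublet scores removed. No paired analysis was possible because each genotype had 1 library.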
